A study of Mus musculus with 11 samples.

Results

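Contractile and mesenchymal cytoskeleton genes were described here as a list of 10 genes, Acta2, Tagln, Cnn1, Cnn2, Cald1, Tpm1, Tpm2, Myl9, Vim and Nes, looked up by symbol among the genes with values. Values were present for 9 of the 10, out of 14272 genes in all, and Tpm2 was not analysed here. The 11 RNA-seq libraries come from 4 mouse cell lines. Melan-a cells are spontaneously immortalized, nonmalignant melanocytes of epithelial phenotype (2 libraries, replicates 2 and 3), grown in medium with 5% serum and 200 nM of the phorbol ester PMA. The other lines were derived from melan-a by repeated cycles in which the cells were kept from attaching, and were grown in the same medium without PMA. They are 4C (3 libraries, pre-malignant, non-tumorigenic and mesenchymal-like), 4C11- (3 libraries, non-metastatic melanoma, mesenchymal-like) and 4C11+ (3 libraries, metastatic melanoma, epithelial). Each stage is a single cell line, so a difference between stages cannot be told apart from a difference between lines. Whether the replicates of a line are separate cultures is not given in the sources used here. The lack of PMA cannot be told apart from the step from melan-a to the derived lines.

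Actin filaments bear load when non-muscle or smooth muscle myosin II pulls on them, and the regulatory light chain, tropomyosin, caldesmon, calponin and transgelin set where and how strongly this happens. Many of the contractile genes carry CArG boxes, short sites bound by serum response factor (SRF) with its actin-sensing coactivators of the MRTF family. Vimentin and nestin belong to another system, the intermediate filaments. Vimentin is a common marker of mesenchymal cells, but it is also made by melanocytes, which come from the neural crest, and nestin is found in neural crest and melanoma cells.

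In these lines the list did not move as one. Smooth muscle actin (Acta2) and transgelin (Tagln) were high in 4C and 4C11- and at or below 3 reads in every library of melan-a and 4C11+. Tropomyosin 1 (Tpm1) and calponin 2 (Cnn2) were higher in the mesenchymal-like lines by smaller amounts, and the light chain Myl9 reached more than 6 reads in 4C11- alone. Vim went the other way, lower in the mesenchymal-like lines than in both epithelial lines, and Nes was higher in melan-a than in 4C and 4C11+, while the derived lines overlapped.

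All values are log2 CPM (read counts scaled to the size of the library) as deposited, after a normalization that gave the libraries a shared highest value of 13.69. The lowest values of a library fall on steps read as 0, 1, 2 and more reads. The step read as 3 lay at log2 values between -2.01 and 0.15. The step read as 40 gave a nominal depth of 3.50 to 7.42 M reads. This depth is rough, since the normalization also moved the low steps. All 4C libraries shared a lowest value of -3.44 at nominal depths of 5.67 to 7.08 M reads. Across genes, libraries of a line correlated at 0.888 to 0.981, the lowest between 4C11- replicates 1 and 3, and the melan-a libraries at 0.907. In bulk RNA, fewer cells that express a gene and less RNA per cell cannot be told apart. The melanocyte markers Tyr, Tyrp1, Dct, Pmel, Mlana, Mitf, Sox10 and Kit were all measured. Their summed level was 1866 and 9033 CPM in melan-a replicates 2 and 3, 3.11 to 11.6 CPM in 4C and 4C11- and 10603 to 12890 CPM in 4C11+. Among them Tyr was at 0 to 2 reads in every 4C and 4C11- library and at only 3 and 13 reads in melan-a, against log2 values of 8.39 to 8.70 in 4C11+. Pmel was at only 2.41 and 2.95 in melan-a against 11.7 to 12.2 in 4C11+. Of 8 fibroblast markers, Col1a1, Col3a1 and Pdgfra were measured, and their sum was 1663 to 2213 CPM in 4C and 4C11- and 8.3 to 85.9 CPM in melan-a and 4C11+. Of the 9 smooth muscle cell and pericyte markers, 8 were measured, with sums of 236 to 525 CPM in 4C and 4C11-, 69.8 to 88.0 CPM in 4C11+ and 177 and 11.8 CPM in melan-a replicates 2 and 3. Most of this was Pdgfrb in the mesenchymal-like libraries (176 to 431 CPM) and in melan-a replicate 2 (120 CPM). Of the 8 markers, 4 were called higher and 1, Myh11, lower in the mesenchymal-like lines. Of the 7 keratinocyte markers Cdh1 alone was measured, at 0.249 to 2.57 CPM in all libraries. Of the 6 Schwann cell and neural crest markers, 4 were measured, with sums of 106 to 259 CPM in melan-a and 4C11+ and 1.13 to 3.43 CPM in 4C and 4C11-. The part of other cell types in the results was not tested.

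The sequence upstream of the start site is shown for 4 of the genes, namely the 3 whose windows hold a CArG box or its looser form, and Vim, which moved the other way. The windows found for the other members held neither form. The windows are from RefSeq (GRCm38.p6) and cover the 250 bases before the annotated start, 5′ to 3′ on the strand of the gene, with every CArG box and every looser form of it, with 1 other letter in its core, in capitals. Positions are counted back from -1, the last base before that start. The gene coordinates given below are from GENCODE, where the starts differ. By those coordinates the whole Vim window, most of the Acta2 window and the last bases of the Cnn2 and Myl9 windows lie inside the gene.
Acta2 (chr19:34255374-34255623, minus strand): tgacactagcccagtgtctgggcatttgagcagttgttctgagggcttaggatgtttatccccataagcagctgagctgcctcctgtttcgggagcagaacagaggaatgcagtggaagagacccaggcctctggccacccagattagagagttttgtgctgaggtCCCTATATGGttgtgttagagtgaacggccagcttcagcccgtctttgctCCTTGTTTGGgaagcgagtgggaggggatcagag
Cnn2 (chr10:79988350-79988599, plus strand): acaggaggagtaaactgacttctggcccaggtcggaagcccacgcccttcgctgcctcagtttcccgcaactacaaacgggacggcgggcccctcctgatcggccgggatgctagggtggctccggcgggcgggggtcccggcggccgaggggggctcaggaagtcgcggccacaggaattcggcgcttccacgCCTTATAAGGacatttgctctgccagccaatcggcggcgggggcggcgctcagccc
Myl9 (chr2:156775214-156775463, plus strand): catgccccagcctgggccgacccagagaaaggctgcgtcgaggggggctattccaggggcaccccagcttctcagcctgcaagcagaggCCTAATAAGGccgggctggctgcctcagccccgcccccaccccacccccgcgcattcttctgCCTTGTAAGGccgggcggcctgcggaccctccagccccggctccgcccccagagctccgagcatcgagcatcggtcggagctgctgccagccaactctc
Vim (chr2:13574061-13574310, plus strand): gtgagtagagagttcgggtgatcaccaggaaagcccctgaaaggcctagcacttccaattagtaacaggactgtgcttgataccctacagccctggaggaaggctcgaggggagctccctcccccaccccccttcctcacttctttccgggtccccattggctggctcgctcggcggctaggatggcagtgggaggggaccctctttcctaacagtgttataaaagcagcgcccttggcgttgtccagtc

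A RefSeq window was found for 9 of the 10 listed genes, with an additional one for Cald1, and none was used for Tagln. An exact CArG box on either strand stood at -56 to -47 in Cnn2 and at -161 to -152 in Myl9, and in 2 of the 10 windows in all, against 1.47% of 32851 windows. With 1 other letter in the core, Acta2 had 2 sites, at -84 to -75 and at -34 to -25, and Myl9 had an additional site at -99 to -90, while 8.59% of all windows held this looser form. Vim held neither form, and held TATAAA at -32 to -27, which Cald1 also held and which is in 12.4% of windows. CATTCC, the core of sites for TEAD factors, was found on either strand in Acta2, Cald1 and Tpm1 and in 12.6% of windows. The looser CArG form includes the exact one, no CArG site overlapped a TATAAA or CATTCC match in these windows, and a match describes the letters of the window, not a bound site.

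Acta2 (ENSMUSG00000035783, GRCm38 chr19:34241090-34255590, minus strand) encodes the actin of smooth muscle and of myofibroblast stress fibres. Its level was -0.72 and -2.58 in melan-a, 8.13, 8.81 and 9.96 in 4C, 8.61, 8.35 and 8.44 in 4C11-, and 0.15, -2.44 and -1.16 in 4C11+. Every mesenchymal-like library was far above every epithelial library, and the epithelial libraries held 0 to 3 reads. Because no epithelial library exceeded 3 reads, the difference is given as a bound. Acta2 was at least 478-fold higher in the mesenchymal-like lines (limma, log2 difference 10.11 ± 0.50 SE, adjusted p = 4.3e-08, n = 6 and 5 libraries from 2 lines each). The bound was 657-fold for 4C over melan-a (adjusted p = 1.84e-06) and 347-fold for 4C11- over 4C11+ (adjusted p = 9.99e-07). 4C and 4C11- overlapped and did not pass the test (log2 difference -0.50 ± 0.67 SE, limma adjusted p = 0.796). Of the stretches of 50 bases in its transcripts, 0.326% also occur in another gene, all of them in Actg1 and in loci that carry the same stretches as it.

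Tagln (ENSMUSG00000032085, GRCm38 chr9:45929619-45936058, minus strand) encodes transgelin, an actin cross-linking protein known as an early marker of smooth muscle. It was at -0.72 and -0.54 in melan-a, at 5.03, 5.40 and 4.79 in 4C, at 4.27, 4.24 and 3.84 in 4C11-, and at -2.44, -2.44 and -0.70 in 4C11+. The groups did not overlap, all epithelial libraries held 0 to 3 reads, and every 4C library was above every 4C11- library. Tagln was at least 27.5-fold higher in the mesenchymal-like lines (limma, log2 difference 5.84 ± 0.37 SE, adjusted p = 2.64e-07, n = 6 and 5 libraries from 2 lines each). The step from 4C to 4C11- did not pass the test (-0.96 ± 0.49 SE, adjusted p = 0.44). Tagln shares exon bases with Pcsk7 and with the antisense gene Gm48529 on the opposite strand, and the strand setting of the counting is not given in the sources used here. Pcsk7 was at 5.09 to 6.69 in the epithelial libraries, where Tagln was at 0 to 3 reads, and at 6.59 to 7.43 in the mesenchymal-like ones, and was called higher there (limma, log2 difference 1.16 ± 0.20 SE, adjusted p = 0.00111). Gm48529 was at -1.42 to 0.67 in the epithelial and 0.20 to 3.89 in the mesenchymal-like libraries and was also called higher (2.25 ± 0.59 SE, adjusted p = 0.0133). The part of these genes in the values of Tagln was not tested.

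Tpm1 (ENSMUSG00000032366, GRCm38 chr9:67022590-67049406, minus strand) encodes a tropomyosin that lies along actin filaments and controls the access of myosin. It was at 9.08 and 9.01 in melan-a, 10.23, 10.81 and 10.38 in 4C, 10.04, 10.10 and 10.22 in 4C11-, and 9.49, 9.51 and 9.59 in 4C11+. The mesenchymal-like libraries were all above the epithelial ones, by 2.01-fold between the means (limma, log2 difference 1.01 ± 0.13 SE, adjusted p = 0.000137). The order was 4C, 4C11-, 4C11+ and melan-a. 4C and 4C11- were not distinguished by the test (adjusted p = 0.439), although every 4C library was above every 4C11- library (10.234 against 10.222 at the nearest), nor were 4C11+ and melan-a (adjusted p = 0.123), although every 4C11+ library was above both melan-a libraries.

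The calponins bind actin and tropomyosin and dampen myosin activity. Cnn2 (ENSMUSG00000004665, GRCm38 chr10:79988584-79996062, plus strand), the form of many non-muscle cells, was at 8.00 and 6.71 in melan-a, 7.98, 8.39 and 8.44 in 4C, 7.96, 8.04 and 7.82 in 4C11-, and 5.73, 5.72 and 5.83 in 4C11+. It was 2.92-fold higher in the mesenchymal-like lines (limma, log2 difference 1.55 ± 0.22 SE, adjusted p = 0.000196), although melan-a replicate 2 was within their range. It was 4.54-fold lower in 4C11+ than in 4C11- (limma, log2 difference -2.18 ± 0.29 SE, adjusted p = 0.000155), while 4C and melan-a overlapped and did not pass the test (0.91 ± 0.32 SE, adjusted p = 0.0814). One melan-a library decides that last call, since without melan-a replicate 2 the difference was 1.55 and passed the test. Cnn1 (ENSMUSG00000001349, GRCm38 chr9:22099216-22109630, plus strand), the calponin of smooth muscle, was at -1.61 to 2.26 in all libraries, which is 1 to 24 reads. The lines overlapped, except that 4C11- was above 4C11+, and Cnn1 passed the test in none of the comparisons (lowest adjusted p = 0.136, for 4C11+ against 4C11-).

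Cald1 (ENSMUSG00000029761, GRCm38 chr6:34598500-34775473, plus strand) encodes caldesmon, which links actin to myosin and inhibits its motor activity. It was at 9.32 and 8.92 in melan-a, 8.57, 9.54 and 9.68 in 4C, 7.50, 8.80 and 9.11 in 4C11-, and 6.81, 6.29 and 7.64 in 4C11+. The lowest line was 4C11+, and 4C11- replicate 1, the library that correlated least with its line, was inside the 4C11+ range. Cald1 was 4.62-fold lower in 4C11+ than in melan-a (limma, log2 difference -2.21 ± 0.51 SE, adjusted p = 0.0141) and 2.94-fold lower than in 4C11- (-1.56 ± 0.46 SE, adjusted p = 0.0225). The first call was lost without melan-a replicate 2 (adjusted p = 0.0948) and without 4C11+ replicate 1 or 2, and the second without 4C11+ replicate 1 or 2 or 4C11- replicate 2 or 3. Between the mesenchymal-like and epithelial lines the difference was 0.85 ± 0.34 SE (adjusted p = 0.085), and it passed the test at 1.09 without 4C11- replicate 1, and also without 4C replicate 1 (1.02) or 4C11+ replicate 3 (1.03).

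Myl9 (ENSMUSG00000067818, GRCm38 chr2:156775420-156781658, plus strand) encodes a regulatory light chain of myosin II of smooth muscle and non-muscle cells. It was at -3.15 and -2.58 in melan-a, -1.01, -1.01 and 0.06 in 4C, 5.81, 4.72 and 4.21 in 4C11-, and -0.70, 0.67 and 0.06 in 4C11+. The reads were 0 and 0 in melan-a, 3 to 6 in 4C and 1 to 5 in 4C11+, against over 40 in each 4C11- library. Myl9 was the only member that passed the test between the mesenchymal-like lines, higher in 4C11- than in 4C (limma, log2 difference 5.57 ± 0.58 SE, adjusted p = 0.000483). It was also higher in 4C11- than in 4C11+ (log2 difference 4.90 ± 0.58 SE, adjusted p = 6.76e-05). The size of both depends on the few reads in 4C and 4C11+, and with 1 CPM added the differences were 4.23 for 4C11- against 4C and -3.93 for 4C11+ against 4C11-, both still past the test. The mean of the mesenchymal-like lines was above that of the epithelial lines by 3.56 ± 0.43 SE on the log2 scale (adjusted p = 6.75e-05), a value that rests on 4C11- and was 2.24 with 1 CPM added to each value. Myl9 also passed the test for 4C over melan-a (adjusted p = 0.0388) and for 4C11+ over melan-a (adjusted p = 0.0123), but at 0 to 6 reads no fold is given, and both calls were lost with 1 CPM added (adjusted p = 0.458 and 0.195). The first was also lost without any 1 of the melan-a and 4C libraries (highest adjusted p = 0.161), 4C11- replicate 2 or 4C11+ replicate 3, and the second without melan-a replicate 2 (adjusted p = 0.0773) or 4C11+ replicate 2.

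Vim (ENSMUSG00000026728, GRCm38 chr2:13573927-13582826, plus strand) encodes vimentin, the main intermediate filament protein of mesenchymal cells. It was at 11.91 and 10.97 in melan-a, 10.22, 10.34 and 9.85 in 4C, 10.15, 10.17 and 9.97 in 4C11-, and 11.15, 10.91 and 11.15 in 4C11+. Every epithelial library was above every mesenchymal-like library. Vim was 2.20-fold lower in the mesenchymal-like lines (limma, log2 difference -1.14 ± 0.18 SE, adjusted p = 5e-04). The order was melan-a, 4C11+, 4C and 4C11-, and neither melan-a and 4C11+ (adjusted p = 0.382) nor 4C and 4C11- (adjusted p = 0.965) were distinguished by the test. Without melan-a replicate 3, the difference of 4C11+ from melan-a was -0.84 and passed the test.

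Nes (ENSMUSG00000004891, GRCm38 chr3:87971078-87980451, plus strand) encodes nestin, an intermediate filament protein of neural progenitors that co-assembles with vimentin. It was at 7.59 and 8.30 in melan-a, 6.58, 7.23 and 6.95 in 4C, 6.91, 6.67 and 6.79 in 4C11-, and 6.89, 6.63 and 7.37 in 4C11+. Melan-a alone stood above the other lines, and the derived lines overlapped. Nes was 2.04-fold lower in 4C than in melan-a (limma, log2 difference -1.03 ± 0.30 SE, adjusted p = 0.0384) and 1.98-fold lower in 4C11+ than in melan-a (-0.98 ± 0.30 SE, adjusted p = 0.045). It was 1.51-fold lower in the mesenchymal-like lines on average (-0.60 ± 0.20 SE, adjusted p = 0.0419). Each of these 3 calls was lost without the mean-variance trend (adjusted p = 0.0704, 0.0792 and 0.0721) and without melan-a replicate 3 (adjusted p = 0.243, 0.238 and 0.172). The first was also lost without 4C replicate 1 or 3, 4C11- replicate 2 or 4C11+ replicate 1, the second without 4C replicate 2 or 3, 4C11- replicate 2 or 3 or 4C11+ replicate 1 or 2, and the last without 4C replicate 1 or 3, 4C11- replicate 2 or 3 or 4C11+ replicate 1 or 3.

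**Figure D1:**
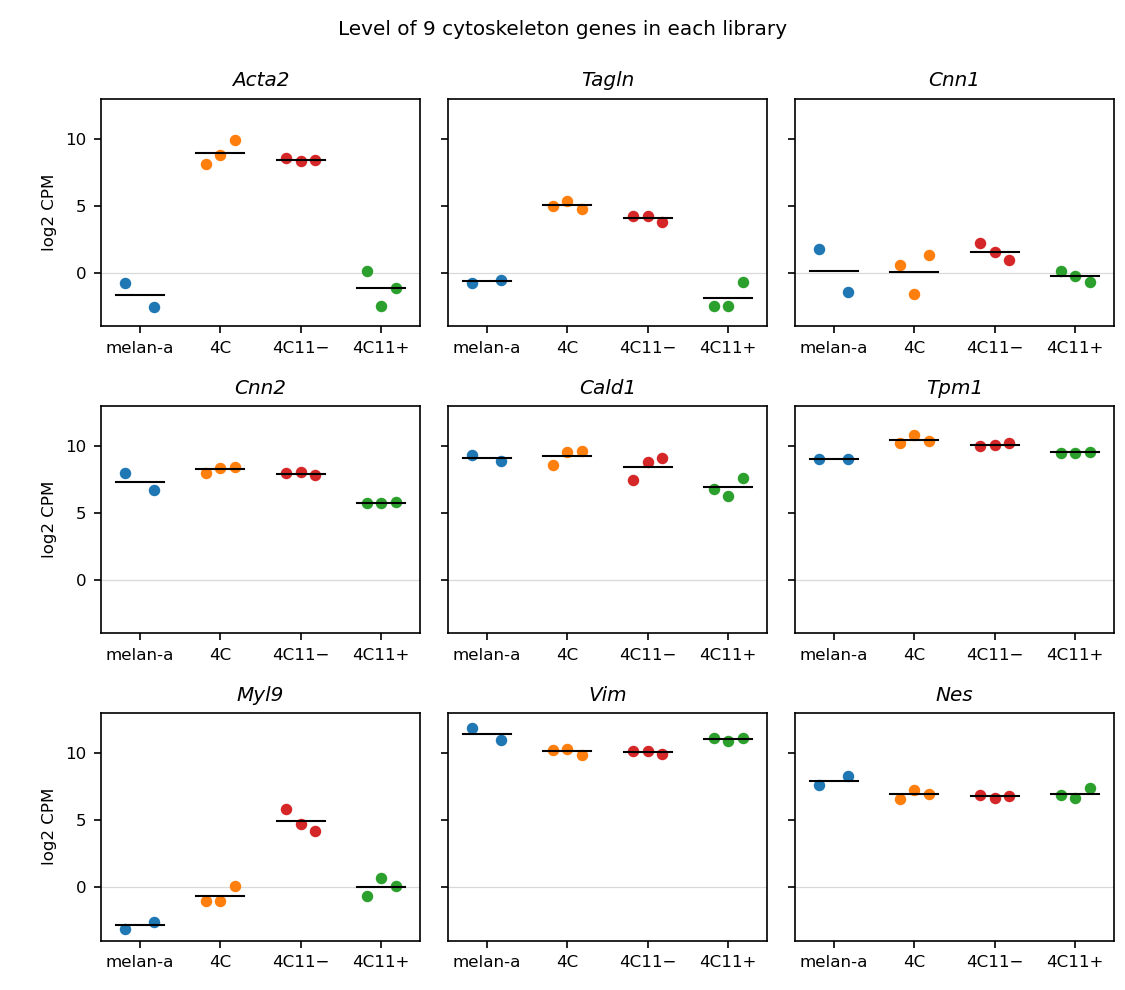
Level of each gene (vertical axis, log2 CPM) in every library (points) of melan-a, 4C, 4C11- and 4C11+ (horizontal axis), with the mean of each line as a bar. Acta2 and Tagln are high in 4C and 4C11- alone, Myl9 is high in 4C11- alone (4.21 to 5.81), and Vim is higher in melan-a and 4C11+ (10.91 to 11.91) than in 4C and 4C11- (9.85 to 10.34).

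Which of these differences go with the mesenchymal-like phenotype was examined by setting the mean of 4C and 4C11- against the mean of melan-a and 4C11+. Of the 9 genes, 5 were higher at an adjusted p under 0.05 (Acta2, Tagln, Myl9, Cnn2 and Tpm1), in a comparison where 14.3% of all genes were higher, and 2 were lower (Vim and Nes), where 15.3% of all genes were lower. Myl9 and Nes did not follow the phenotype in every line. Myl9 was high in 4C11- alone, and its mean in 4C (-0.65) was not above that in 4C11+ (0.01). Nes was higher in melan-a alone, and its mean in 4C11+ (6.96) was near that in 4C (6.92). The median log2 difference was 1.01 over the 9 genes and -0.09 over all genes. The libraries did not overlap for 3 genes that were higher (Acta2, Tagln and Tpm1; 6.82% of all genes) and for 1 that was lower (Vim; 7.06% of all genes). This comparison contains the libraries of every other comparison, so the values below are other views of the same libraries and not separate evidence. Each phenotype is represented by only 2 lines, and the libraries of a line are not replicates of the phenotype.

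The step from melan-a to 4C, from an epithelial to a mesenchymal-like line before tumorigenicity, had 4 genes higher (Acta2, Tagln, Tpm1 and Myl9; background 7.64%) and 2 lower (Vim and Nes; background 7.55%). Tpm1 rose 2.70-fold (limma, log2 difference 1.43 ± 0.20 SE, adjusted p = 0.000432), and Vim was 2.47-fold lower (-1.30 ± 0.27 SE, adjusted p = 0.00618). The step from 4C to 4C11-, which brought tumorigenicity without a change of phenotype, had 1 gene higher, Myl9 (background 1.26%), and 0 lower (background 0.406%). No other member had an unadjusted p under 0.05 in that step, and with limma the other 8 had log2 differences between -0.96 and 1.50.

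The step from 4C11- to 4C11+, from non-metastatic to metastatic melanoma and back to an epithelial phenotype, had 1 gene higher, Vim (background 15.6%), and 6 lower (Acta2, Tagln, Myl9, Cnn2, Cald1 and Tpm1; background 15.4%). Vim was 1.97-fold higher in 4C11+ (limma, log2 difference 0.98 ± 0.24 SE, adjusted p = 0.00922). Tpm1 was 1.50-fold lower (-0.59 ± 0.18 SE, adjusted p = 0.027), a call lost without any of 4C11- replicates 2 and 3 and 4C11+ replicates 1 and 2 (highest adjusted p = 0.0961), and without the mean-variance trend (adjusted p = 0.0712). The median log2 difference was -1.86 over the 9 genes, or -1.58 with genes at 0 to 3 reads taken at their bound, and 0.12 over all genes.

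The epithelial lines themselves were compared by setting 4C11+ against melan-a. Of the 9 genes, 1 was higher (Myl9, at 0 to 5 reads; background 8.39%) and 3 were lower (Cald1, Cnn2 and Nes; background 7.52%). Cnn2 was 3.03-fold lower in 4C11+ (limma, log2 difference -1.60 ± 0.32 SE, adjusted p = 0.00687). Acta2 and Tagln were at or below 3 reads in both lines, and no fold is given. Between 1 and 5 of the 9 genes passed the test when a library was left out, the lowest count without 4C11+ replicate 2, where only Cnn2 remained, and the highest without 4C11+ replicate 3.

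**Figure D2:**
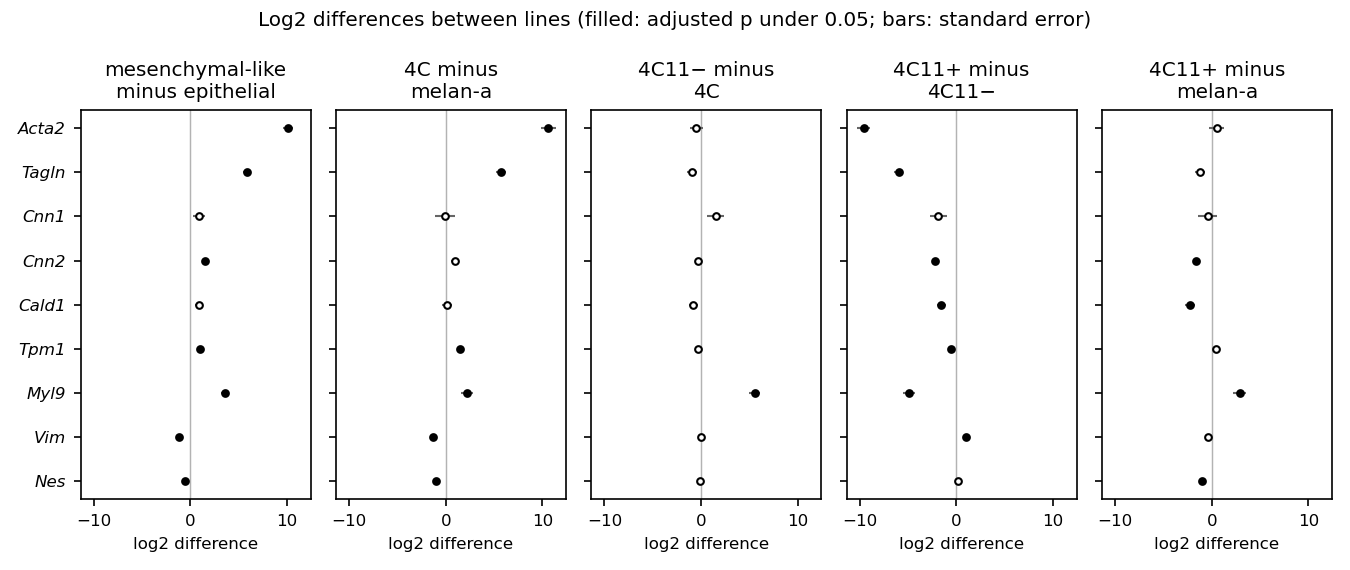
Log2 difference (horizontal axis) of each gene (vertical axis) in 5 comparisons (panels), with standard errors as bars and filled points for an adjusted p under 0.05. Acta2 and Tagln change by several log2 units, with a size bounded only from below, wherever a mesenchymal-like line is set against an epithelial one, and Myl9 is the only filled point between 4C11- and 4C.

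Whether the difference between phenotypes had the same size before and after tumorigenicity was asked by subtracting the log2 difference of 4C11- over 4C11+ from that of 4C over melan-a. None of the 9 genes passed the limma test of this contrast, in which 3.95% of all genes were higher and 5.88% lower. At an unadjusted p under 0.05 there were 3, with log2 values of -2.69 ± 0.87 SE for Myl9 (adjusted p = 0.0757), -1.27 ± 0.43 SE for Cnn2 (adjusted p = 0.0883) and 0.84 ± 0.27 SE for Tpm1 (adjusted p = 0.0732). For Acta2 and Tagln both epithelial lines were at 0 to 3 reads, so each difference is known only as a bound and whether the sizes were equal cannot be read from it. The bounds were 657-fold for 4C over melan-a and 347-fold for 4C11- over 4C11+ for Acta2, and 44.3-fold and 17.1-fold for Tagln. One library decides the value for Cnn2, which passed the test at -1.92 without melan-a replicate 3 (adjusted p = 0.00336), and Myl9 passed it with 1 CPM added to each value (-3.39, adjusted p = 0.00306).

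**Figure D3:**
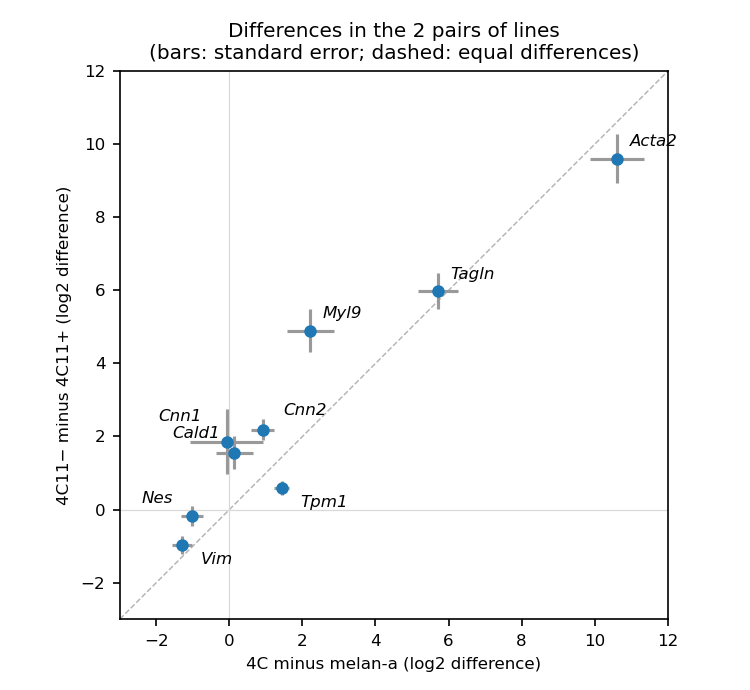
Log2 difference between 4C and melan-a (horizontal axis) and between 4C11- and 4C11+ (vertical axis) for each gene, with standard errors as bars and the line of equal differences dashed. The positions of Acta2 and Tagln rest on epithelial lines at 0 to 3 reads and are bounded only from below, Myl9 is drawn from 0 to 6 reads in melan-a, 4C and 4C11+, and Vim is negative in both pairs.

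The related genes of each family were given beside the members, per kilobase of exon, since levels of different genes can be compared only per length. Among actins, Acta2 was at a mean of 7.83 log2 CPM per kilobase in 4C, close to cytoplasmic gamma-actin (Actg1, 7.78). In 4C11- Acta2 was at 7.33, below Actg1 (7.90). In both lines Acta2 was below beta-actin (Actb, 11.70 and 11.52). Actb and Actg1, the actins of all cells, passed the test in no comparison (lowest adjusted p = 0.0676, for Actb in mesenchymal-like against epithelial lines). The enteric smooth muscle actin Actg2 followed the direction of Acta2 at a much lower level, with 13 to 39 reads in each mesenchymal-like library and 0 to 2 in each epithelial one, at least 4.04-fold higher (limma, adjusted p = 0.000391). Of the 5 other actin genes listed, 3 were measured, 1 was higher and 0 were lower in the mesenchymal-like lines.

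The transgelin paralog Tagln2, the form of many non-muscle cells, did not share the pattern of Tagln. It was at 7.44 and 6.98 in melan-a, 7.77, 7.89 and 7.17 in 4C, 7.78, 7.40 and 7.49 in 4C11-, and 0.84, -0.24 and 1.20 in 4C11+, which is 2 to 10 reads. Melan-a thus had Tagln2 and next to no Tagln, the mesenchymal-like lines had both, and 4C11+ had very little of either. The level of Tagln2 in 4C11+ was lower than in 4C11- by 6.95 ± 0.36 SE on the log2 scale (limma, adjusted p = 1e-07) and lower than in melan-a by 6.60 ± 0.40 SE (adjusted p = 1.21e-06), and the difference between the pairs passed the test (-6.55 ± 0.53 SE, adjusted p = 2.6e-05).

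Among tropomyosins, Tpm4 was higher in the mesenchymal-like lines (limma, log2 difference 0.97 ± 0.18 SE, adjusted p = 0.00151) and Tpm3 lower (-0.79 ± 0.17 SE, adjusted p = 0.00398). Neither passed the test between 4C and melan-a (adjusted p = 0.806 and 0.978), and the difference between the pairs passed it for both (adjusted p = 0.0139 and 0.0149). In 4C11+ the mean levels per kilobase were 6.84 for Tpm1, 6.16 for Tpm3 and 6.20 for Tpm4, against 7.42, 4.59 and 8.00 in 4C11-. The calponin Cnn3 was at 8.21 to 8.83 log2 CPM in the line means and passed the test in no comparison (lowest adjusted p = 0.0949). Of the 5 paralogs listed for calponin, transgelin and tropomyosin, 4 were measured, 2 were higher and 1 was lower in the mesenchymal-like lines.

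Among intermediate filament genes outside the list, the simple epithelial keratins Krt18 and Krt7 were high in the mesenchymal-like lines. Krt18 was at -0.25 and -0.70 in melan-a, 9.40, 9.36 and 8.94 in 4C, 8.18, 7.64 and 8.08 in 4C11-, and -2.44, -0.70 and -2.58 in 4C11+. It was at least 442-fold higher in the mesenchymal-like lines (limma, adjusted p = 4.48e-09), and Krt7 at least 37.8-fold (adjusted p = 2.15e-06), while Krt8, the usual partner of Krt18, was at -1.16 to 1.96 in those libraries and did not pass the test (adjusted p = 0.104). Synemin (Synm), a partner of vimentin and desmin, was higher by 4.16 ± 0.51 SE (adjusted p = 7.35e-05), and the cytolinker plectin (Plec) by 1.64 ± 0.21 SE (adjusted p = 8.8e-05). Of 15 other intermediate filament and linker genes, 10 were measured, 4 were higher and 0 were lower, while Vim was lower.

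**Figure D4:**
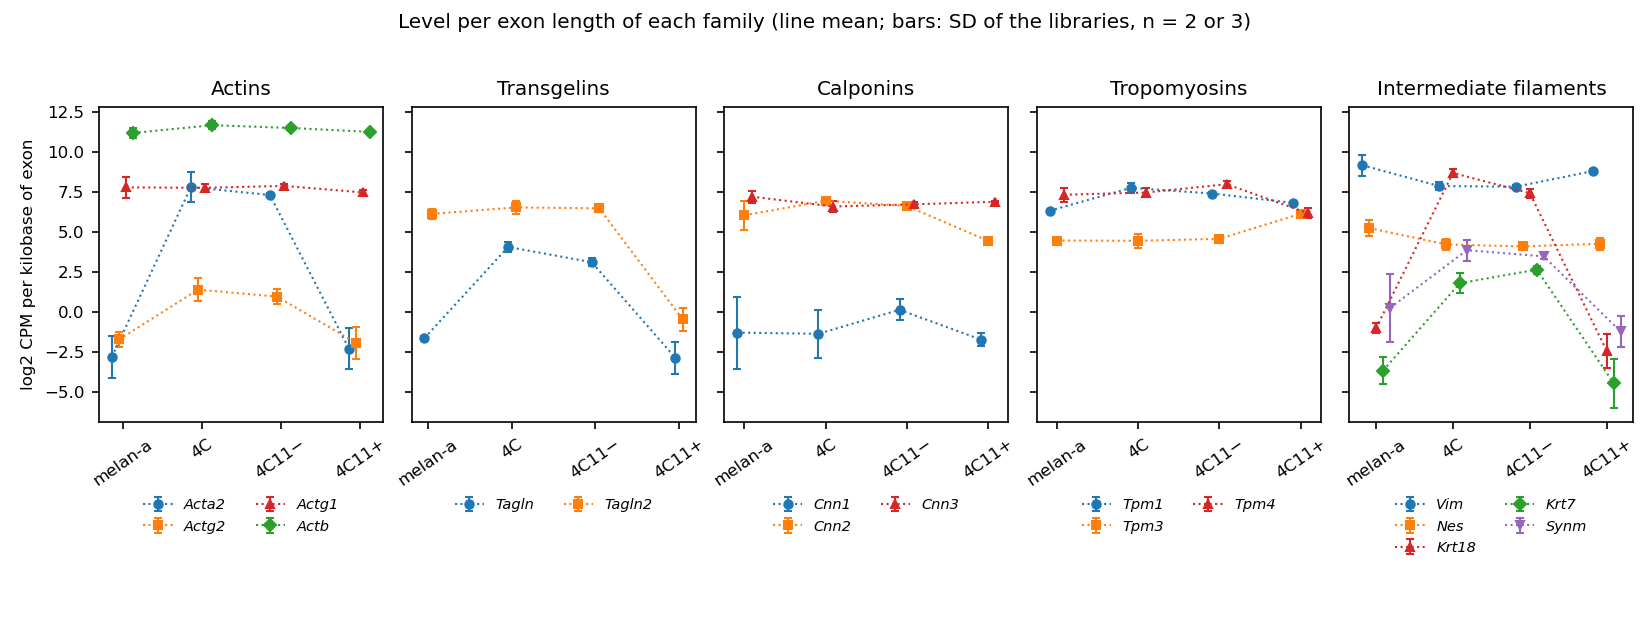
Mean level per kilobase of exon (vertical axis, log2 CPM per kilobase, bars showing the SD of the libraries) of each family in the 4 lines (horizontal axis). Acta2 is near the level of Actg1 in 4C and below it in 4C11-, Tagln2 is low in 4C11+ alone, and Krt18, Krt7 and Synm are high where Vim is lower.

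The genes that act on the same filaments were counted in lists, read against the background of 14.3% higher and 15.3% lower in mesenchymal-like against epithelial lines. Of 13 stress fibre and focal adhesion linkers, all measured, 7 were higher and 2 lower (median log2 difference 0.58). The muscle filamin Flnc was higher by 5.80 ± 0.37 SE (limma, adjusted p = 2.87e-07), with 4 to 14 reads in each epithelial library, and the actin bundler palladin (Palld) was higher by 2.15 ± 0.53 SE (adjusted p = 0.00967), although melan-a replicate 2 was at 6.35, above every mesenchymal-like library (4.94 to 6.24). The Z-line protein Pdlim5 was lower (-1.23 ± 0.21 SE, adjusted p = 0.000785).

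Of 14 genes of non-muscle myosin II and its activation, all measured, 3 were higher and 1 was lower (median 0.03). Myosin heavy chain IIB (Myh10) was at 5.57 and 5.09 in melan-a, 6.18 to 6.67 in the mesenchymal-like libraries and 1.48, 0.67 and 0.48 in 4C11+, which is 5 to 10 reads in 4C11+. It was lower in 4C11+ than in melan-a by 4.45 ± 0.34 SE on the log2 scale (limma, adjusted p = 6.23e-06). Myosin heavy chain IIA (Myh9) was higher in the mesenchymal-like lines by 1.05 ± 0.19 SE (adjusted p = 0.0015) and the light chain Myl12a by 0.53 ± 0.17 SE (adjusted p = 0.0381), while the GTPase Rhoa was lower (-0.62 ± 0.15 SE, adjusted p = 0.00785). Neither Myh9 nor Myl12a passed the test between 4C and melan-a (adjusted p = 0.285 and 0.668), and both overlapped between the phenotypes. Myl12a was at 8.02 to 9.21 log2 CPM in all libraries, including those with next to no Myl9.

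Of 10 smooth muscle contractile and associated genes, 7 were measured, 2 were higher and 1 was lower (median 0.67). The LIM protein Fhl2 was higher by 4.39 ± 0.61 SE on the log2 scale (limma, adjusted p = 0.000189) and smoothelin (Smtn) by 1.15 ± 0.20 SE (adjusted p = 0.0012). Smooth muscle myosin heavy chain (Myh11), the defining marker of that tissue, was lower (-1.82 ± 0.51 SE, adjusted p = 0.0193) at 1 to 20 reads in all libraries. Desmin (Des) was at 4.66 to 5.99 in the mesenchymal-like and 2.64 to 5.10 in the epithelial libraries and did not pass the test (adjusted p = 0.102).

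Of 12 genes of the SRF, MRTF and YAP/TAZ transcription factors and their usual targets, all measured, 5 were higher and 2 lower (median 0.42). SRF itself (Srf) was at 5.53 to 6.80 in the mesenchymal-like and 5.51 to 6.11 in the epithelial libraries and passed the test in no comparison (lowest adjusted p = 0.197). The coactivator Mrtfa did not pass it either (lowest adjusted p = 0.0595), and Mrtfb was lower in the mesenchymal-like lines (limma, log2 difference -0.64 ± 0.18 SE, adjusted p = 0.0201). Myocd, the muscle coactivator, was not analysed here. The factor Tead4 was also called lower there (-0.94). The YAP and TAZ genes, Yap1 and Wwtr1, had higher medians in the mesenchymal-like libraries (8.97 and 7.35) than in the epithelial ones (7.76 and 6.55). Their lowest line means were in 4C11+ (7.65 and 6.40), against 8.79 and 7.18 in melan-a. Among the targets, Ankrd1 was higher by 5.29 ± 0.80 SE (adjusted p = 0.000347), Ccn2 by 2.90 ± 0.49 SE (adjusted p = 0.000787) and Ccn1 by 1.69 ± 0.40 SE (adjusted p = 0.00793). The size for Ankrd1 depends on 0 to 1 reads in 4C11+. For Ankrd1 and Ccn1, 4C against melan-a did not pass the test (adjusted p = 0.17 and 0.32). The targets Egr1 (1.18, adjusted p = 0.115) and Fos (-0.63, adjusted p = 0.31) did not pass it between phenotypes. Egr1, at 3 reads in each 4C11+ library, was at least 12.4-fold lower there than in 4C11- (limma, adjusted p = 0.00222). It was at least 7.72-fold lower there than in melan-a (adjusted p = 0.0256). Fos was lower in 4C than in melan-a (limma, log2 difference -2.55 ± 0.64 SE, adjusted p = 0.0194). The difference between the pairs passed the test for Egr1 (-4.90 ± 1.05 SE, adjusted p = 0.0137) and Fos (-3.85 ± 0.86 SE, adjusted p = 0.0173). Ankrd1 differed between the melan-a libraries, at 4.97 in replicate 2 and -0.24 in replicate 3, as did Fhl2 (3.80 and 0.06), Synm (4.73 and 1.76) and Palld (6.35 and 2.67). Melan-a replicate 2 also had the higher sums of smooth muscle and pericyte markers and of fibroblast markers, and the lower sum of melanocyte markers. Most of the difference in that last sum was Tyrp1 (364 CPM in replicate 2 and 6336 CPM in replicate 3). Sox10 (529 and 236 CPM) and Kit (121 and 72.5 CPM) were higher in replicate 2, and the other melanocyte markers were lower there. Among members, replicate 2 had the higher Vim, Cnn2, Cnn1, Cald1, Tpm1 and Acta2, the last at 2 and 0 reads. It had the lower Nes, Tagln and Myl9, the last 2 at 0 to 3 reads. The part of that library in these differences was not tested.

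Over the 11 libraries, Acta2 correlated with Tagln at r = 0.957 and with Tpm1 at 0.898, and with Vim at -0.867, correlations that share the 4 line means and are given as a description. After the line means were removed, the values were -0.12, 0.08 and 0.38. The 3 genes of the whole table most like Acta2 were Camk1d (r = 0.993), Thbs2 (0.992) and Mapk10 (0.990). Those most like Tagln were Atp1b1 (0.990), Pofut1 (0.987) and Morc2a (0.983), and those most like Cnn2 were C230034O21Rik (0.994), Lmcd1 (0.992) and Igsf9 (0.989). For Tpm1 they were Lrp2 (0.957), Zhx3 (0.953) and Zfp978 (0.951), for Cald1 Adamts6 (0.977), Morc3 (0.973) and Slc5a3 (0.972), and for Myl9 Cmpk2 (0.942), Il11ra1 (0.927) and Dusp9 (0.925). For Vim they were Pax3 (0.955), Tmod1 (0.947) and Gm43916 (0.946), for Nes Tmem181b-ps (0.915), Dnaja3 (0.903) and Aak1 (0.893), and for Cnn1, which was near the lowest values, Smim1 (0.888), Wdyhv1 (0.883) and Arhgef10l (0.880).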

How the data were processed

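Total RNA-seq of 11 libraries was used, 2 of melan-a and 3 each of 4C, 4C11- and 4C11+, grouped by the sample labels. The phenotypes are those of the study's Methods. The authors trimmed the reads with Trimmomatic (named in the submitters' processing notes), aligned them with STAR to GRCm38 and Ensembl genes, assigned them with Rsubread, kept genes above a minimum CPM and applied voom from limma, and the deposited values are log2 CPM with a shared highest value across libraries. The values were used as deposited. The rank of a value among the distinct low values of a library was read as its number of reads, and a gene with 3 reads or fewer in every library of a line counted as absent there, with its fold given as a lower bound from the value at 3 reads.

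All genes were fitted with limma 3.58.1 in R 4.3.3 (a mean per line, eBayes with trend, p-values adjusted by Benjamini-Hochberg over 14272 genes, adjusted p under 0.05), and the fit was tested on simulated data. P-values measure the spread between the replicate libraries of a line, not the spread between lines of a phenotype. Coordinates are from GRCm38 and promoter windows from RefSeq. Tables and figures were made with Python 3.11.15, pandas 2.3.3, NumPy 2.4.6 and matplotlib 3.10.9. The members and the gene lists were chosen with earlier results of these data known. All members were described. From each list, up to 4 genes past the threshold with the largest difference between the mesenchymal-like and epithelial lines were named, and in addition all measured paralogs, the actin isoforms, Srf, Mrtfa, Mrtfb and Myocd. One gene that this rule names is not reported here. Krt8, Des, Pcsk7, Egr1, Fos, Yap1 and Wwtr1, and the single cell type markers whose values are given, were named after their values were seen. For likeness, the 3 genes with the highest Pearson correlation were named for each member. The alternatives were another quantile normalization, an offset of 1 CPM, a filter on the mean value, the replicate number as a block, no variance trend, and each library left out in turn.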

Additional observations from a re-analysis of the deposited data

Results flagged for a closer look

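In 18 groups of libraries (each of the 9 genes in the mesenchymal-like and in the epithelial libraries), 2 had a library far from the others. 4C replicate 3 was at 9.96 for Acta2, against 8.81 in the next highest mesenchymal-like library. Melan-a replicate 2 was at 11.91 for Vim, against 11.15 in the next highest epithelial library. The cutoff is set to flag about 1 in 20 groups drawn from a single normal population. Each group here pools 2 lines, so the rate expected by chance is not known.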

How the results depend on the processing

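Of 852 values of single genes under alternatives, 778 kept their direction and their side of the threshold, 47 lost the call, 9 gained one and 18 changed sign, all of these last from values that had not passed the test. When a library of melan-a was left out, the remaining one was assumed to vary like the other lines. With each library left out in turn, the number of genes called was 6 to 8 in mesenchymal-like against epithelial lines, 4 to 6 in 4C against melan-a, 1 throughout in 4C11- against 4C, 5 to 7 in 4C11+ against 4C11-, 1 to 5 in 4C11+ against melan-a and 0 to 1 in the difference between the pairs. A filter on genes with a mean value of at least 1 left 7 of the 9 genes, without Myl9 and Cnn1, so that 0 were called in 4C11- against 4C. Without the mean-variance trend, the calls of Nes in 3 comparisons and of Tpm1 in 4C11+ against 4C11- were lost. With 1 CPM added, 1 gene was called in the difference between the pairs. Log2 differences that changed sign with a library left out ranged from -0.43 to 1.44 for Acta2, -2.03 to 1.16 for Cnn1 and -0.84 to 0.11 for Vim in 4C11+ against melan-a, from -1.67 to 1.52 for Cnn1 and -0.073 to 0.48 for Cald1 in 4C against melan-a, from -0.30 to 0.026 for Nes and -0.18 to 0.06 for Vim in 4C11- against 4C, from -0.03 to 0.34 for Nes in 4C11+ against 4C11-, and from -0.86 to 0.015 for Tagln and -0.80 to 0.15 for Vim in the difference between the pairs, where Tagln was 0.59 with 1 CPM added. The cause was not tested.

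The replicate numbers were not taken to pair the libraries, since the labels give no shared batch and not every pair correlated above 0.1. Deviations from the line means correlated at -0.23 to 0.39 (median 0.15) over 15 pairs with the same number and at -0.42 to 0.34 (median -0.095) over 30 others, and 4 of 11 libraries correlated best with their own number. With the replicate block, 8, 5, 1, 7, 3 and 0 of the 9 genes were called in the comparisons in the order above. The block added Cald1 in mesenchymal-like against epithelial lines (0.99, adjusted p = 0.0171) and lost Myl9 in 4C against melan-a (adjusted p = 0.0629) and Nes in 4C11+ against melan-a (adjusted p = 0.0634). Depth limits the values of Acta2, Tagln, Cnn1 and Myl9 in lines with few reads.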
